A study of Drosophila melanogaster with 3 samples.

Results

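The sites described here are Chrac-16 binding sites of Drosophila melanogaster embryos that lie close to one another in chains, called runs below. They were chosen by measured values: in the authors' optimal peak list for the dm6 build, 4941 peaks were merged where they overlapped by 1 bp or more, the summit of highest signal was kept, and a site was a member if it lay in a run of 3 or more sites whose consecutive summits were at most 5000 bp apart. Of 4712 merged sites, 1259 (26.7%) were members, in 346 runs. The other 3453 sites formed 584 pairs, or stood alone at 2285 places. Because summit positions and signal in this list chose the members, their number, spacing and pooled signal are given as a description, with no test.

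The study mapped Chrac-16 by chromatin immunoprecipitation and sequencing, in which DNA bound by a protein is recovered with an antibody and its positions are read as peaks. All samples were whole embryos aged 0 to 24 h, males and females pooled, from a transgenic line whose Chrac-16 carries a C-terminal GFP tag, and the precipitation used an antibody against GFP. Chromatin was sonicated to fragments of 200 to 800 bp. The 3 biological replicates form 1 group, so no condition is compared. The labels do not say which promoter drives the tagged protein or whether the untagged gene was still present. Every tissue and stage of the embryo is mixed in each sample, so sites of 1 run need not be bound in the same cells, and a low signal cannot be told apart from binding in few cells.

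Chrac-16 is a small histone-fold protein that pairs with Chrac-14 in the chromatin accessibility complex, CHRAC, around the ATPase ISWI and its partner Acf. ISWI complexes slide nucleosomes along DNA and set regular spacing, and the histone-fold pair binds DNA and helps the sliding. In the fly such complexes are known for nucleosome order near promoters and other open regions, where regulatory DNA often lies as several elements around 1 gene.

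Strongest members from among the longest and strongest runs are shown first as sequence, since the values below turn on these summits. Those of the long run at mir-ban, described below, are left out. The stretches shown reach 50 bp to each side of the summit, plus strand, 5′ to 3′, from the RefSeq sequence of release 6 (dm6). Capitals mark letters of the motifs searched (listed with their shares further on). The first holds a TATA box that overlaps a reversed initiator, TATAAA and AACTGA. The stretch from the Raf intron holds CTCTC, the reversed GAGA element, at 2 places and ATGGC, the reversed Pho core, once. The summit by cbt holds TTTATA, the reversed TATA box, and the one at lncRNA:CR44619 holds TATCG, the reversed BEAF element, at 2 places and a reversed initiator. A sequence with no capitals held none of the letters searched.
CHES-1-like intron, signal 679, chrX:7706952-7707052: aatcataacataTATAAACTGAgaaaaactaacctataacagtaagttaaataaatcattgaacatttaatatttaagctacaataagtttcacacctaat
CHES-1-like intron, signal 509, chrX:7700372-7700472: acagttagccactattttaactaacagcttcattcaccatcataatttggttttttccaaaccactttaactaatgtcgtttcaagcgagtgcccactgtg
Raf intron, signal 994, chrX:2297672-2297772: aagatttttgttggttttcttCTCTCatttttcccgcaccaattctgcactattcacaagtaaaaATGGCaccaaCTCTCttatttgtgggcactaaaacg
Raf intron, signal 488, chrX:2304015-2304115: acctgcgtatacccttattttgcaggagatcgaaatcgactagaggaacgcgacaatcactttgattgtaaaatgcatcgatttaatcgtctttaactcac
ush intron near cbt, signal 3155, chr2L:481035-481135: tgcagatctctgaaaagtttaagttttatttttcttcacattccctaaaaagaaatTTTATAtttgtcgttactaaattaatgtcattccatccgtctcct
ph-p promoter, signal 2176, chrX:2137284-2137384: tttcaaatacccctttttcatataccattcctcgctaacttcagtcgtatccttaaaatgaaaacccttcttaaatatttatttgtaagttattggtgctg
larp promoter, signal 1663, chr3R:28326552-28326652: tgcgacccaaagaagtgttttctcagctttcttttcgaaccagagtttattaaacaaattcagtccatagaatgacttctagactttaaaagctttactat
lncRNA:CR44619 promoter, signal 1331, chrX:12752303-12752403: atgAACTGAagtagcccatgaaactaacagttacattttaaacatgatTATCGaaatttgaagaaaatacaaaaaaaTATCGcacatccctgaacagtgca
Each of the 8 stretches is rich in A and T, with between 21.8% and 39.6% G and C.

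Signal values are the authors' own, as deposited, on a scale that differs between the pooled list and the replicate lists. The relaxed list of each replicate held 30000, 24619 and 29140 peaks for replicates 1 to 3. Read depth was not used here, since peak lists do not give it. Of the 1259 members, 1257 overlapped a peak in each replicate list taken alone, not always the same ones. In all 3 lists together, 99.5% of members and 99.7% of other sites had a peak. The median distance between the member summit and the replicate summit was 16, 17 and 14 bp. Among the 4941 strongest peaks of a replicate, 90.7%, 90.5% and 89.4% of members were found, beside 87.8%, 88.5% and 88.7% of the other sites. The difference of 1.87 ± 1.15 percentage points (SD, n = 3) was positive in all 3 replicates, with p = 0.25 in an exact two-sided sign-flip permutation test, the smallest p that 3 replicates allow. The pooled list was made from the same 3 replicates, so these values show how the replicates share the sites and are not independent of the choice of members.

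Most runs were short. There were 219 runs of 3 sites, 72 of 4, 35 of 5 and 11 of 6, and 6 runs of 7, while 1 run each held 9, 10 and 12. The 913 gaps inside runs ranged from 200 to 4993 bp with a median of 2166 bp and quartiles of 1200 and 3467 bp. The smallest gap that fell outside the limit was 5001 bp, and the distribution of spacing had no break there. Over all 4706 neighbouring pairs the median was 10222 bp. From first to last summit a run measured 5800.5 bp in the median and 22694 bp at most, and all runs together spanned 2161 kb, or 1.61% of the X, 2L, 2R, 3L, 3R and 4. Within runs, 92 gaps (10.1%) were 800 bp or less, the length of the longest sheared fragments, and some such neighbours fell in a single peak of a replicate: 12, 10 and 10 members shared their peak with another member in replicates 1, 2 and 3.

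**Figure D1:**
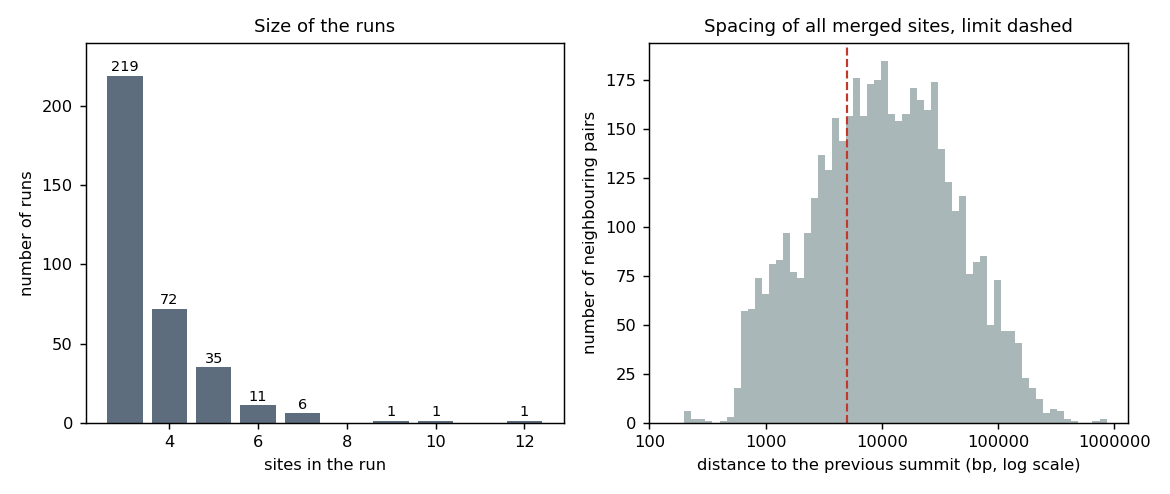
Left, the number of runs (y axis) by the number of sites in the run (x axis), with 219 runs of 3 sites and 1 run of 12. Right, the number of neighbouring pairs (y axis) by the distance between their summits in bp on a log scale (x axis) for all merged sites, with the limit of 5000 bp dashed and no break in the distribution beside it.

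The longest run lay on the X at CHES-1-like, a gene for a forkhead transcription factor. Its 12 summits stretched over 18907 bp, from 7692094 to 7711001, and 11 of them fell inside the gene. By class, 9 were in introns, 2 within 500 bp of an annotated start and 1 between genes. The strongest, an intron site whose nearest start is that of lncRNA:CR43287, had signals of 247, 202 and 221 in replicates 1 to 3. The intron site at 7700422 had 181, 190 and 136, and the one at 7705598 had 167, 162 and 166. Those 3 sites were the highest members of the run by pooled signal, which was made from the same replicates. In replicate 3 the site at 7700422 was hardly above the promoter site at 7709182, with 135.735 and 135.653. The promoter sites at 7697093 and 7709182 took middle values, 129, 118 and 116 for the former and 123, 126 and 136 for the latter. The last member, between genes, gave 23.8 in replicate 1 but 70.1 and 63.7 in replicates 2 and 3, the widest of the 12 as a ratio between replicates, though not as a difference. Its seventh and eighth members are 284 bp apart and shared a single peak of 36.2 in replicate 1 and of 33.4 in replicate 2.

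Next in length was a run of 10 sites on 3L, from 621598 to 644292, at the primary transcripts of bantam, the microRNA that promotes growth and blocks cell death. It is the longest run in bp, 22694, and no protein-coding gene starts inside it. Of its members, 5 lay in non-coding exons, 2 within 500 bp of the starts of lncRNA:CR43337 and mir-ban, 2 between genes and 1 in an intron, and 6 fell inside the extent of lncRNA:CR43334. High and low members were interspersed along the run. The strongest member, in a non-coding exon, had 150, 141 and 146 in replicates 1 to 3, the first member 115, 127 and 151, and the site at 640730 had 117, 125 and 141. The member 428 bp downstream of the annotated mir-ban start was among the weak ones, at 47.1, 59.0 and 47.5, below those 3 in every replicate.

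A run of 9 sites on the X, from 2293751 to 2306492, lay over part of Raf, the gene of the kinase that passes receptor tyrosine kinase signals from Ras to MEK. Raf is annotated over 48405 bp, and the run spanned 12741 bp. Only its first member was at a promoter, that of the neighbouring CG2865. The other 8 lay inside Raf, 7 in introns and 1 in the 5′ UTR. The intron site 2256 bp into the gene from the nearest start was the strongest in each replicate, with 344, 333 and 318. The 5′ UTR site gave 147, 173 and 183, and the intron site at 2304065 gave 139, 166 and 181. The weakest of the 9, at 2301388, had 27.6, 39.9 and 49.2 and lay between members of 130, 134 and 146 and of 86.7, 107 and 71.0, so high and low summits stood within 1 kb of each other in all replicates.

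The run of highest summed signal, 4764, spanned 6 sites on 2L from 480084 to 493439. All 6 fell inside the annotated extent of ush, a cofactor of GATA factors that restrains the factor Pannier. The first was also within 500 bp of a start of cbt, a zinc finger transcription factor gene that is switched on early after signals. The strongest pooled peak of the whole list, 3155, was its second member, in a ush intron, and reached 1123, 1046 and 984 in replicates 1 to 3. The cbt promoter site gave 276, 231 and 278. The other 4 members were much lower, with pooled signals between 121 and 362, so that the strongest stood 26.1-fold above the weakest, the highest ratio of any run. A further run of 6 sites, from 510628 to 522978, lay in the same gene. Its last member was within 500 bp of an annotated start inside the gene and gave 47.1, 80.2 and 54.8. With 12 member summits, ush was exceeded among protein-coding genes by CG1677 alone, which is 124709 bp long and held 16.

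Other runs of high summed signal were led by promoters. At ph-p, which encodes the Polyhomeotic subunit of Polycomb repressive complex 1, 4 sites on the X lay within 3513 bp. The promoter site at 2137334 had 736, 770 and 760, the start-proximal site 638 bp further on had 313, 234 and 274, and both intron sites were at 122 or lower in every replicate. At larp, a gene for a La-related RNA-binding protein, 7 sites on 3R stretched over 13447 bp to the start of Gfat2. The first member, at a larp promoter, had 566, 564 and 526, and the highest value of any other member of that run in any replicate was 116. At lncRNA:CR44619, a non-coding gene on the X, the first pair of 5 members were high together, at 417, 362 and 442 for a non-coding exon and 519, 396 and 418 for the promoter site, and the order of the pair changed in replicate 3. The other 3 were lower, between 52.0 and 153 in every replicate.

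**Figure D2:**
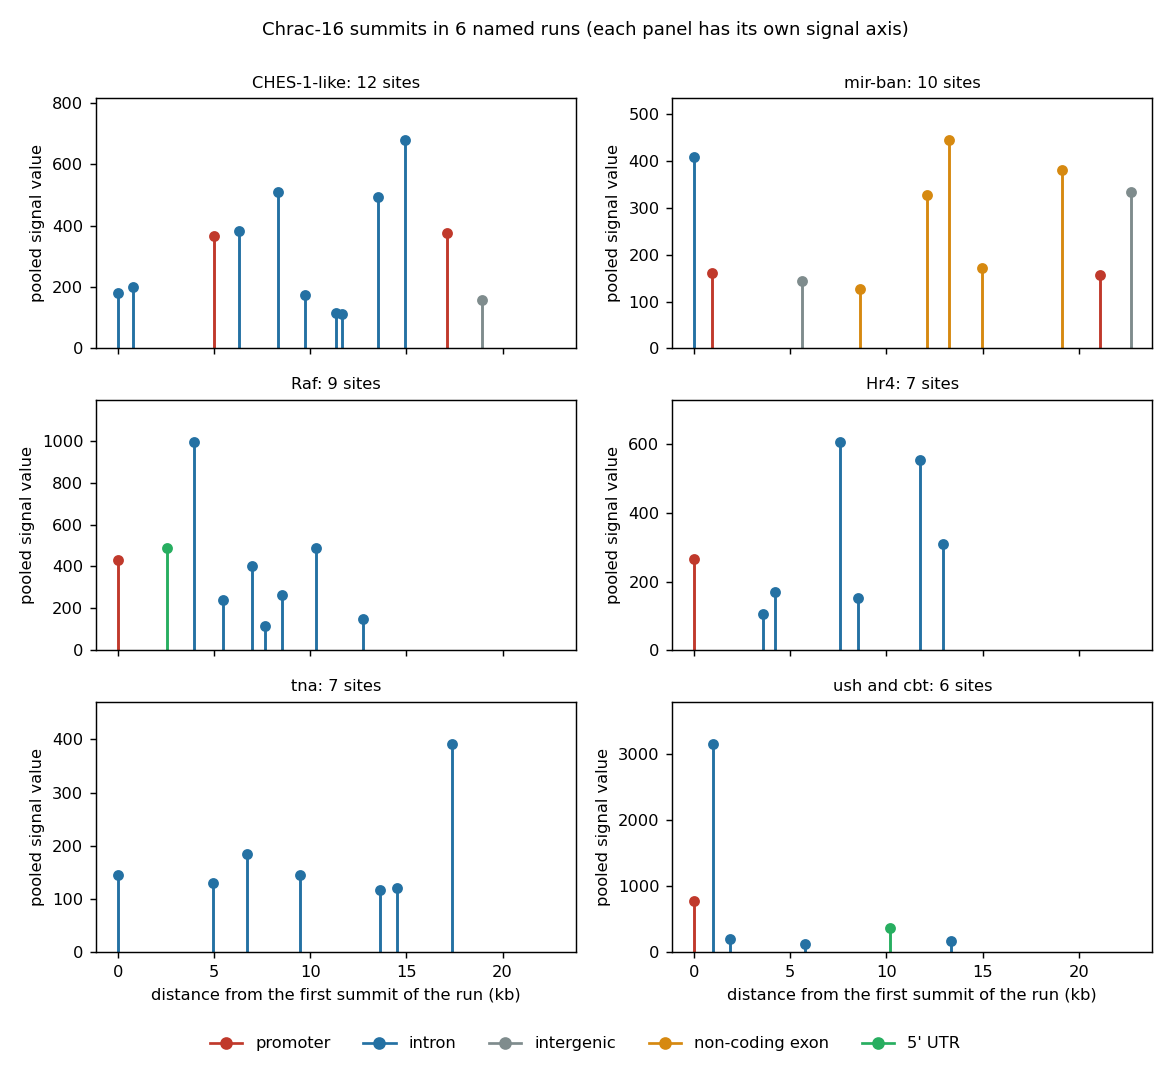
Pooled signal value (y axis, a separate scale in each panel) of each member summit by its distance in kb from the first summit of its run (x axis), for 6 named runs, coloured by the class of the site. The ush and cbt run has a single tall summit of 3155, while the CHES-1-like and mir-ban runs have several high summits with weak ones between them. In the Raf run a summit of 994 stands above the next, of 488 and 486.

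**Figure D3:**
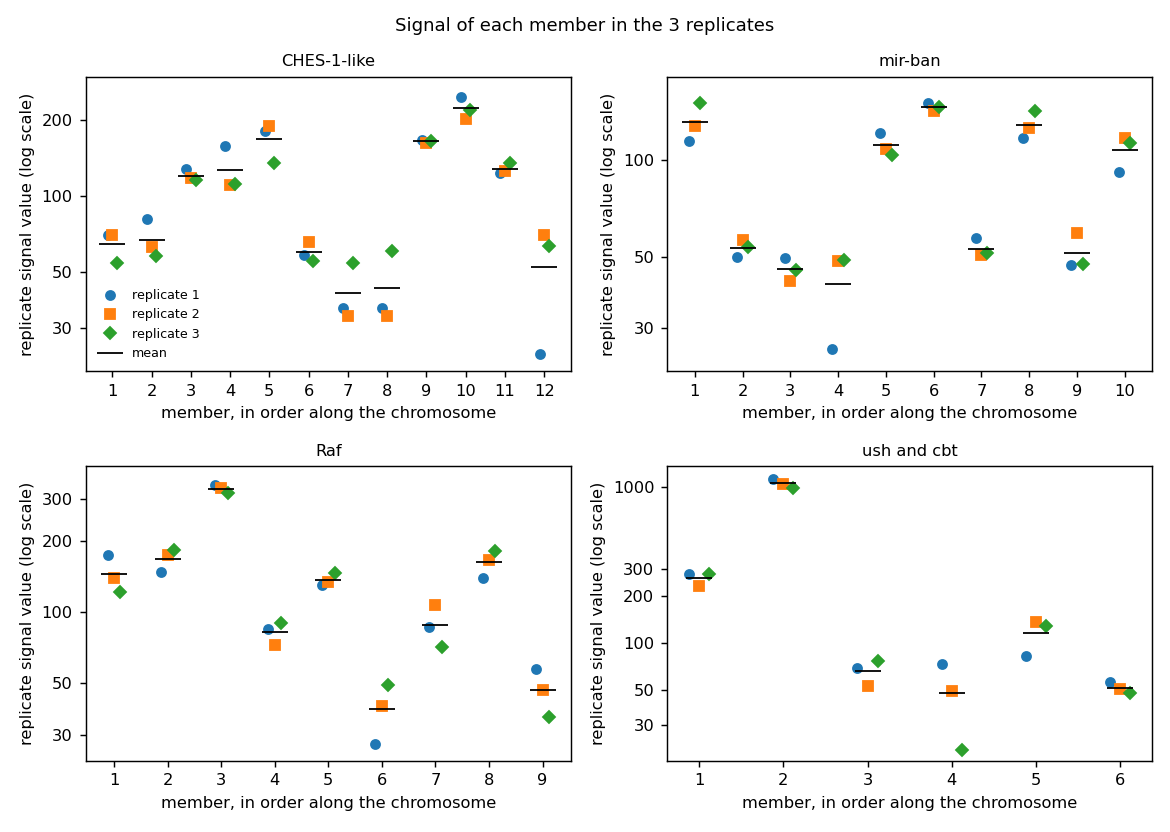
Replicate signal value (y axis, log scale) of each member (x axis, in order along the chromosome) in 4 named runs, with 1 point per replicate and a bar at their mean. The strongest member of the CHES-1-like, Raf and ush and cbt runs is the same in all 3 replicates.

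The remaining named runs were mostly intronic. All 7 members of a run of 17398 bp on 3L lay in introns of tna, a trithorax-group gene, and the strongest, at one end, had 128, 121 and 137. At Hr4, a nuclear receptor gene of the ecdysone response, 6 of 7 members were in introns, the strongest at 199, 215 and 200.8, and the first was at the shared promoter region of CG3587 and CG3857. Along msn, a Ste20-family kinase gene, 4 intron sites were followed by sites at RpL8, a ribosomal protein gene, and dos, an adaptor in receptor tyrosine kinase signalling, and its 7 pooled signals lay within a factor of 1.87. At apt, a transcription factor gene on 2R, 5 of 7 members were inside the gene and the strongest, in an intron, had 111, 103 and 115. At Ptpmeg2, a tyrosine phosphatase gene, all 6 members were inside the gene and 4 were at alternative starts of it. Of these, the sites at 9646114 and 9650943 were high, at 207, 244 and 194 and at 200, 199 and 230.

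Other named runs held no protein-coding start between their first and last summits. A run of 7 sites on 2L, from 1621043 to 1643474, had 5 members between genes and 2 in exons of lncRNA:CR44603, with the nearest protein-coding start, RFeSP, 6883 bp away. Its strongest member had 252, 260 and 256. The tightest run, on 2R, had a mean gap of 740 bp over 4 intergenic sites, of which the first had 282, 279 and 293. Its inner pair of members are 200 bp apart and shared a single peak of 136 in replicate 1 and of 133 in replicate 2, and the first of that pair had no peak in replicate 3. Another tight run, of 4 intron sites in CG1677, had a mean gap of 761 bp, and one of 6 sites on 2L by NimC3, lncRNA:CR45352 and lncRNA:CR31840, had 788 bp. In the last of these the strongest site gave 206, 59.2 and 134, a wide spread between replicates.

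Position relative to genes was not used to choose the members. A smaller share of members than of other sites was at promoters, defined as within 500 bp of an annotated transcript start, and a larger share was in introns. Of the members, 554 (44.0%, 95% exact binomial interval 41.2% to 46.8%) were at promoters, beside 1839 of the other sites (53.3%, 51.6% to 54.9%). Introns held 494 members (39.2%, 36.5% to 42.0%) and 1040 other sites (30.1%, 28.6% to 31.7%). The share between genes was 13.7% of members and 14.5% of other sites. Non-coding exons held 26 members (2.07%) and 23 other sites (0.666%), and 5 of those 26 are the members at mir-ban. No member lay in a coding exon (interval 0% to 0.293%), and 10 other sites did (0.290%). These intervals cover counting error only, and sites of 1 run share their neighbourhood and are not independent.

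With each replicate's own summits in place of the pooled ones, the promoter share of members minus that of other sites was -9.19, -9.25 and -9.27 percentage points in replicates 1 to 3, a mean of -9.24 ± 0.0430 (SD, n = 3). Those 3 values use the same sites, so their sign follows from the pooled value, their spread reflects shifts of the summit only, and they are no replicate support. When runs were instead found anew in the 4941 strongest peaks of each replicate, there were 1246, 1256 and 1190 members in 335, 343 and 329 runs. The difference was then -12.1, -10.9 and -10.7 points, a mean of -11.2 ± 0.739 (SD, n = 3), negative in 3 of 3 replicates. The exact two-sided sign-flip permutation test gave p = 0.25, the smallest p that 3 replicates allow. In the pooled relaxed list of 24641 peaks, where the same rule made 16918 members, the difference had the opposite sign, +2.30 points.

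The promoter share was lower in longer runs. This split was made after the values had been seen, and gaps and run lengths come from the choice of members, so it carries no test. Of single sites 54.2% were at a promoter, and of sites in pairs 51.5%. The share was 51.3% in runs of 3, 42.4% in runs of 4, 36.6% in runs of 5 and 22.3% (31 of 139 sites, interval 15.7% to 30.1%) in runs of 6 or more. Without the runs at CHES-1-like, mir-ban and Raf the last value was 24.1% of 108 sites. In the replicates' own lists the same 6 shares were 53.4% ± 0.678, 53.5% ± 1.23, 48.0% ± 1.10, 41.3% ± 4.21, 33.1% ± 6.78 and 29.2% ± 2.91 (SD, n = 3). In replicate 1 alone the share in runs of 6 or more, 32.5%, was above that in runs of 5, 30.3%. The number of protein-coding genes that start within 5000 bp of a site averaged 1.74 for single sites, 2.14 in pairs, 2.20 in runs of 3, 1.96 in runs of 4, 1.62 in runs of 5 and 0.669 in runs of 6 or more. From runs of 3 onward it fell with the promoter share, while from single sites to runs of 3 it went the other way, and its part in the result was not tested.

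**Figure D4:**
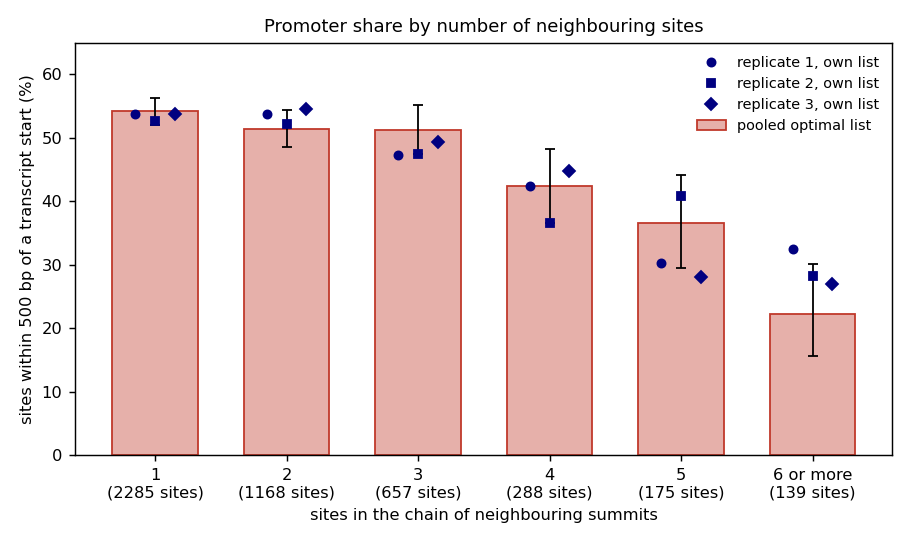
Share of sites within 500 bp of a transcript start (y axis, percent) by the number of sites chained together (x axis). Bars are the pooled optimal list with 95% exact binomial intervals, and points are the lists of the 3 replicates; the bars go from 54.2% for single sites to 22.3% in runs of 6 or more.

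Runs fell into distinct arrangements. Every site was at a promoter in 64 runs, none was in 77, and 205 were mixed. The all-promoter runs had at most 5 sites. A median of 5 protein-coding genes had a start between the first and last summit, with the span widened by 500 bp at each end. An example on 2L, chosen because it holds list genes named below, has 3 sites from 10382057 to 10387982 at the starts of CG5096, of Cdk1 and mRpS7, and of da. The runs without a promoter site had a median of 0 such genes, and 45 of those 77 lay inside a single gene. The widened span takes in starts that make a site a promoter site, so this contrast follows in part from how the arrangements are defined. In all, 89 runs with 331 members (26.3%) lay inside 1 gene, and the 82 host genes had a median length of 34214.5 bp, beside 2166 bp for all 13945 protein-coding genes. A longer gene has more room to hold a whole run, so host length and run position cannot be told apart here. Neighbours that were both promoters were 2825 bp apart in the median (243 gaps), and neighbours that were both elsewhere 2068.5 bp (380 gaps).

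Replicate signal was somewhat higher at members than at other sites. The median over members was 63.4, 63.3 and 62.8 in replicates 1 to 3, and over other sites it was 56.0, 57.7 and 57.6. The ratio was 1.11 ± 0.0223 (SD, n = 3), a log2 ratio of 0.14 ± 0.03, above 1 in 3 of 3 replicates, with p = 0.25 in the exact two-sided sign-flip permutation test. Those 3 ratios use the same sites, chosen from a pooled list made from these replicates, so their shared sign is no replicate support. With runs found anew in each replicate's own strongest peaks, the ratio was 1.11, 1.08 and 1.10. By class the ratio at the pooled sites was 1.02 ± 0.0233 at promoters, where replicate 3 was below 1 at 0.990, 1.14 ± 0.0410 in introns and 1.25 ± 0.0435 between genes (SD, n = 3). In the pooled list the medians were 185 for members and 170 for other sites. Among the 1178 sites of lowest pooled signal 22.9% were members, and among the 1178 of highest signal 31.8%. The quartiles of the members were 134 and 305, so the groups overlapped over nearly their whole range.

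Signal varied widely inside runs. The strongest member of a run exceeded the weakest 2.69-fold in the median. Neighbours in a run had nearly unrelated signal, with a Spearman correlation of 0.04 for log2 signal over 913 pairs, beside -0.02 over 3209 neighbouring pairs more than 5000 bp apart. These describe sites of 1 pooled list. Against that, the pattern within a run recurred between replicates: log2 signal centred on the mean of its run correlated at 0.87, 0.88 and 0.88 for the 3 pairs of replicates over 1255 members, which share library depth within a replicate and are not independent points. In 249 runs (72.0%) the strongest member of the pooled list was also the strongest in all 3 replicates, in 75 it was so in 2 of them, and in 3 runs in none. The pooled list was made from the same replicates, so these counts are not independent of it and carry no test. That strongest member was at a promoter in 169 runs (48.8%), in an intron in 128 (37.0%) and between genes in 41 (11.8%). Over all members these shares were close to that, at 44.0%, 39.2% and 13.7%.

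The share of sites that were members varied between chromosome arms, beside 26.7% over all sites. The X and 2L had the highest shares, 30.9% (interval 27.9% to 34.1%) and 29.7% (26.7% to 32.8%) of their sites. The shares were 25.9% (22.8% to 29.0%) on 2R, 24.3% (21.7% to 27.1%) on 3L and 23.9% (21.4% to 26.5%) on 3R. The small chromosome 4 had 1 run, 3 of its 18 sites. The interval of 2R overlapped those of the X and 2L, and that of 3L overlapped that of 2L. These intervals cover counting error only, and sites of 1 run are not independent. The X and 2L also had the most sites per Mb, at 37.9 each, beside 31.4 on 2R, 35.1 on 3L and 35.3 on 3R. Among the latter 3 arms the order was reversed, with the highest share on the least dense, and the part of site density in the shares was not tested. On the X 34.8% of members were at promoters, and on 2L 53.2%.

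In all, 639 of 13945 protein-coding genes (4.58%) had a start within 500 bp of a member summit, 363 (2.6%) held a member summit inside the gene, and 113 (0.81%) held 3 or more. The last group had a median length of 29872 bp. Among 18 gene lists, which were described by counts alone and not tested, stress and immediate early genes were found most often at member promoters, in 6 of 25 cases (24.0%). These were Atf3, a stress-induced bZIP factor, with 388, 318 and 348 in replicates 1 to 3, cbt, and, at lower signal, Hsp22, Hsp26, Hsp83 and scyl. Of insulin and TOR growth genes 5 of 21 (23.8%) were found: Sesn, which encodes the TOR inhibitor Sestrin, with 296, 294 and 227, the insulin receptor gene InR with 80.1, 144 and 127, and Akt, Thor and foxo. Of cell cycle genes 5 of 30 (16.7%) were found, led by Dp, the partner of E2F, with 151, 168 and 163 and by Cdk1, the mitotic kinase, with 88.8, 84.4 and 96.7, beside CycB, fzr and fzy. Cdk1 shares its summit with mRpS7, so the site counts for both. Any Chrac-16 site at all was at 12 of the 25, 11 of the 21 and 15 of the 30 genes of these lists, beside 3123 (22.4%) of all protein-coding genes.

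Cytosolic ribosomal protein genes were at member promoters in 12 of 85 cases (14.1%), and 54 of the 85 had some site there, beside the 22.4% of all protein-coding genes. RpL34b, the strongest, had 197, 202 and 215, and RpL30 had 92.2, 43.4 and 101. Of mitochondrial ribosomal protein genes 6 of 73 (8.22%) were found, among them mRpL34 with 135, 125 and 118, and 38 of the 73 had some site at a start. The share at member promoters over all protein-coding genes was 4.58%. Both kinds of gene are short, and member summits inside them were few, 2 of 85 and 0 of 73.

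Of Notch and receptor tyrosine kinase genes 3 of 29 (10.3%) were at a member promoter, beside 4.58% of all protein-coding genes. Members lay inside 6 of the 29 (20.7%), and 5 of those held 3 or more. Over all protein-coding genes 2.6% held a member inside and 0.81% held 3 or more. The 6 were Raf, aop, mam, neur, pnt and spi. The EGF receptor ligand gene spi had 183, 215 and 200 at its start, and neur, a ubiquitin ligase gene of the Notch pathway, had 103, 57.5 and 65.3. The median gene of that list is 19124 bp long. Some Chrac-16 site was at a start of 10 of the 29 and inside 16 of them, beside 22.4% and 11.6% of all protein-coding genes. Of Polycomb and Trithorax genes 2 of 23 (8.70%) were at member promoters, ph-p and its neighbour ph-d, the latter with 56.4, 73.3 and 71.5, and trx also held members. The 2 genes are closely similar tandem copies, so reads could be split between them. Insulator genes were represented by 2 of 18 (11.1%): Trl, which encodes GAGA factor, with 142, 119 and 143, and BEAF-32 with 63.8, 76.0 and 65.2. The share at member promoters over all protein-coding genes was 4.58%. Some Chrac-16 site was at a start of 8 of the 23 Polycomb and Trithorax genes and 9 of the 18 insulator genes, beside the 22.4% of all protein-coding genes.

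The lists of developmental genes stood between 0% and 16.7%, beside the 4.58% of all protein-coding genes. Of segmentation genes 2 of 24 (8.33%) were found, bcd, the maternal anterior determinant, with 119, 178 and 128, and nkd, a Wnt pathway inhibitor, with 143, 135 and 134; nkd was also the 1 of 25 Wnt and Hedgehog genes (4.00%). Neural genes gave 2 of 26 (7.69%): elav, the pan-neuronal RNA-binding protein gene, with 277, 309 and 316, and da, a helix-loop-helix factor, with 62.2, 63.7 and 65.2. Ecdysone and nuclear receptor genes gave 1 of 23 (4.35%), usp, the partner of EcR in the ecdysone receptor, with 81.7, 74.3 and 52.5. GATA genes gave 1 of 6 (16.7%), the cofactor ush. Of genes of ISWI complexes and other remodellers, 1 of 25 (4.00%) was at a member promoter, near the 4.58% of all protein-coding genes. It was the ATPase gene pont, with 171, 149 and 156, and tou held members inside. Some Chrac-16 site was at a start of 13 of the 25, beside 22.4% of all protein-coding genes. No start of the 8 Hox genes, 14 cell death genes, 32 BMP, Hippo and JAK-STAT genes or 66 cuticle genes was within 500 bp of a member summit, though Antp, Socs36E, shn and sog held members inside.

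**Figure D5:**
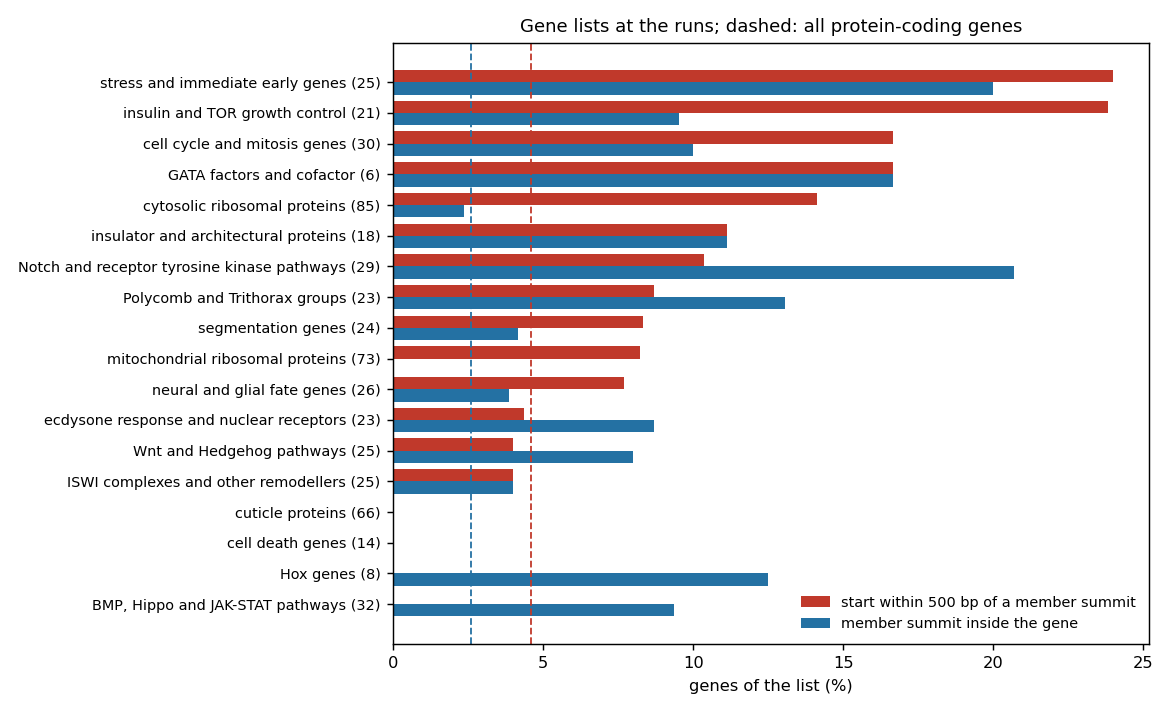
Percent of the genes of each list (x axis) with a start within 500 bp of a member summit (red) or a member summit inside the gene (blue), for 18 lists (y axis, with the number of genes). Dashed lines are the same shares over all 13945 protein-coding genes, 4.58% and 2.6%; stress and immediate early genes reach 24.0% and cuticle genes 0%.

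Sequence under the summits differed little between members and other sites. Windows of 100 bp to each side of the summit had a median of 34.3% G and C in both groups, and the median soft-masked share was 20.4% in both. Neighbouring windows of a run had at most 14 letters in a row in common, with a median of 8 over 912 pairs, a check made after the values had been seen. Searched on both strands were GAGAG (GAGA element), TATCGATA (DNA replication-related element), CGATA (BEAF element, contained in the former), GGTCACAC (motif 1), CACGTG and CAGCTG (E-boxes), CAGGTAG (Zelda site), AGATAAG (bound by GATA factors), TATAAA (the TATA box), TCAGTT (initiator), GCCAT (Pho core), TGACTCA (AP-1 site), CACACACA (CA repeat), AAAAAAAA (A tract) and GGGCGG (GC box). Of these 15, 7 were more frequent in members and 8 in other sites. Only 2 had intervals that did not overlap, with no test made. The DNA replication-related element was in 32 members (2.54%, interval 1.74% to 3.57%), 4.40% of other sites (3.74% to 5.14%) and 0.564% of all windows of that length that tile the genome. The BEAF element was in 26.6% of members (24.2% to 29.1%), 31.7% of other sites (30.1% to 33.2%) and 21.4% of genome windows. Both elements were more frequent at promoter sites than at intron sites, and members had a smaller promoter share; among promoter sites alone the shares were 5.60% and 7.88% for the former, and 33.9% and 41.7% for the latter. The GAGA element was in 21.4% of members, 20.4% of other sites and 21.5% of genome windows, the TATA box in 38.7%, 36.8% and 21.8%, the initiator in 12.2%, 12.4% and 12.4%, and the Pho core in 25.7%, 26.1% and 35.4%.

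The DNA replication-related element occurred at 2 or more sites in 2 runs only, and 3 of those 4 windows are shown because this element stood out among the 15. They reach 100 bp to each side of the summit, plus strand, from the RefSeq sequence of release 6 (dm6), with the element in capitals. The signals in replicates 1 to 3 were 75.4, 44.7 and 71.1 at RpS25, a ribosomal protein gene, 53.8, 34.1 and 42.6 at Oga, which encodes the enzyme that removes O-GlcNAc, and 59.4, 91.7 and 76.4 at CG3337.
RpS25 promoter, chr3R:11216242-11216442: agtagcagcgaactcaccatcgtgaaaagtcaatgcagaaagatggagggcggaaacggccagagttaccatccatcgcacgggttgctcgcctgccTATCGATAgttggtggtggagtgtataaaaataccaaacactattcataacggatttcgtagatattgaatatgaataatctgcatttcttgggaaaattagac
Oga promoter, chr3R:21218932-21219132: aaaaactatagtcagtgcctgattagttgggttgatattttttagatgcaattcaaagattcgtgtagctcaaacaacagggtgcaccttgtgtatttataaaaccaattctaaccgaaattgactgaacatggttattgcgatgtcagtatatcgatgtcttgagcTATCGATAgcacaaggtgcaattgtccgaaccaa
CG3337 promoter, chr3R:21223516-21223716: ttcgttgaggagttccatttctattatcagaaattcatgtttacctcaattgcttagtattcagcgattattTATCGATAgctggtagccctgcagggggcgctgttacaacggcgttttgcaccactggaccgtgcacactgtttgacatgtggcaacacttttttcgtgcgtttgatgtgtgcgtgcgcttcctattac
In the RpS25 window the element covers the summit, and in the other windows it lies to one side.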

How the data were processed

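Chromatin immunoprecipitation of GFP-tagged Chrac-16 was measured in 3 biological replicates of whole embryos. The authors deposited narrowPeak lists. Per the listings deposited beside them, relaxed lists were made per replicate and on the pool as input for the IDR procedure, and the optimal list was derived from them. The signal value per peak and the summit offset, another number in bp, are the authors' own, as deposited, and the summit is the start plus the offset. Names of the caller and the aligner were not given in the sources used here. Alignment of a control is not analysed here, and depth is unknown from peak lists.

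Peaks were merged and chained as described in the text, and a replicate peak was matched to a site at an overlap of 1 bp or more, taking the strongest. Sites were assigned with Ensembl release 115 (dm6) in the order promoter, coding exon, 5′ UTR, 3′ UTR, non-coding exon, intron and intergenic; transposable elements and other scaffolds were left out. Runs were named when among the 8 with most members, the 6 of highest summed signal, the 3 with most members inside 1 gene or the 3 of smallest mean gap, and from each list the 2 genes of highest member signal were named; other names were chosen after their values were seen. The members, the 18 lists and the 15 motifs were chosen with earlier results of these data known. Several symbols in the lists were replaced with current names of the same genes after a first count had been seen. The split by run size, the joining within 800 bp, the count by summits inside genes and the choice of sequences also followed a look at the values. Merging, chaining and promoter assignment were tested on simulated data, which returned the planted sites. Intervals are exact binomial at 95% and cover counting error only. Software was Python 3.11.15, numpy 2.4.6, pandas 2.3.3, scipy 1.17.1 and matplotlib 3.10.9.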

Additional observations from a re-analysis of the deposited data

How the results depend on the processing

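The promoter share of members stayed below that of other sites under every alternative run except the pooled relaxed list, where the difference was +2.30 percentage points; the cause was not tested. The values below follow the order number of members, number of runs, promoter share of members, difference in promoter share from other sites, ratio of median signal, share of members in runs inside 1 gene, and median gap in bp, leaving out those that moved by less than the spread over replicate lists (for the first pair, less than 1.5 times). With the limit at 2500 bp they were 487, 144, 37.8%, -14.5 points, 1.12, 36.6% and 1361. With it at 10000 bp they were 2340, 549, 47.9%, -5.72 points, 1.06, 15.6% and 3525. Runs of 4 or more gave 602, 127, 36.0%, -16.9 points, 1.06, 29.1% and 1898. The pooled relaxed list gave 16918, 2710, 31.6%, the +2.30 points, 1.15, 20.2% and 1740.5. Sites among the strongest peaks of all 3 replicates gave 654, 188, 42.4%, -13.0 points, 1.13, 31.0% and 2068.5. The 50% of sites with higher signal gave 292 members, 85 runs, 39.7%, -19.0 points, 34.2% inside 1 gene and a gap of 1990. Without merging, the promoter share was 46.8%, the difference -6.80 points, the share inside 1 gene 25.2% and the gap 1916. The lists of replicates 1, 2 and 3 alone gave differences of -12.1, -10.9 and -10.7 points and shares inside 1 gene of 28.2%, 27.1% and 27.5%. In replicates 1 and 2 the promoter share was 41.7% and 41.6%, in replicates 1 and 3 the signal ratio was 1.11 and 1.10, and in replicate 1 the gap was 2030. With promoters at 250 bp the share of members was 33.8%, and at 1000 bp it was 55.1% with a difference of -7.55 points. Widening genes by 500 bp put 38.9% of members in runs inside 1 gene. Joining neighbours within 800 bp, chosen after seeing the data, gave 1105 members, -8.24 points and a gap of 2448.

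Leaving out 1 replicate at a time required a site to be among the strongest peaks of both others. It gave 768 to 828 members, 218 to 234 runs, promoter shares of 41.8% to 43.9%, differences of -13.6 to -10.5 points, signal ratios of 1.08 to 1.10, shares inside 1 gene of 29.1% to 30.3% and gaps of 2107 to 2146. On the dm3 list 1101 members formed 305 runs. Of all protein-coding genes, 4.58% had a start at a member, 5.19% a start within the span of a run widened by 500 bp, and 2.60% a member inside. Motif shares were also taken over 200 bp to each side of the summit, and 14 of 15 kept their direction between members and other sites. No paired analysis was possible because there is only 1 group. The number of members thus depends on the limit and on the list, and 3 replicates cannot give a p below 0.25. Neighbours within a fragment length may be parts of 1 binding region, and this was not tested beyond the joining above.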
